A study of Mus musculus with 2 samples.

Results

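Acetylcholine signalling was followed through 10 genes in nuclei of the mouse anterior hypothalamus. The genes were taken by symbol from the 32289 features of the deposited count tables, where each of the 10 symbols was found in 1 row. They are Chat, Slc5a7 and Slc18a3 for making, taking up and packing the transmitter, Ache for its breakdown, Chrm1, Chrm2, Chrm3 and Chrm4 for muscarinic receptors, and Chrna4 and Chrna7 for nicotinic receptor subunits. Their levels were read in every neuron type of both libraries, and then compared between the libraries.

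The study took tissue of the anterior hypothalamus, with the preoptic area, from male mice. One library held nuclei pooled from 5 aged mice of 22 months, and the other held nuclei pooled from 5 young mice of 3 months that the labels call wild-type. The sources used here give neither the strain of the mice nor the genotype of the aged ones, and the labels name no treatment. Nuclei were cleared of myelin, sorted by DAPI stain and run on a 10x Genomics droplet chip.

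A cholinergic neuron joins choline to an acetyl group with choline acetyltransferase (Chat), loads the product into vesicles through a carrier (Slc18a3), and recovers choline from the cleft through a high-affinity transporter (Slc5a7) after acetylcholinesterase (Ache) has cut the transmitter. Muscarinic receptors act through G proteins, with Chrm1 and Chrm3 coupled to phospholipase C and Chrm2 and Chrm4 to inhibition of adenylyl cyclase, while nicotinic receptors are ion channels of several subunits. The basal forebrain, which borders the dissected region, holds cholinergic neurons that project to the cortex, and the striatum holds cholinergic interneurons.

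After filtering and removal of doublets, 8194 aged and 9938 young nuclei remained, of which 4969 and 6416 were neurons with a median of 8344 and 7755.5 unique molecular identifiers (UMIs, the counted RNA molecules). The libraries shared 25 barcodes. Neurons fell into 24 sub-clusters built without the 10 genes, and 23 of them held 20 or more nuclei in each library. One further sub-cluster, led by Slc17a7, Pdzrn3 and Cck, held 12 aged and 132 young nuclei and enters only the sums over all neurons. Levels are given as CPM, the UMIs of a gene over all UMIs of a group of nuclei, times 1000000, with exact Poisson 95% intervals. Each age has 1 library and so no replicate, every interval covers counting error only, and age, pool of mice and library cannot be told apart.

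Chat and Slc18a3 share 1 locus. In the GENCODE M21 annotation of build GRCm38, Chat is at chr14:32408203-32465989 on the minus strand, with 17 exon blocks. Slc18a3 is a single exon at chr14:32462438-32464850 on the same strand, inside an intron of Chat, so RNA of the unspliced Chat transcript and of Slc18a3 cannot be told apart there. Gm2990 lies antisense to Chat and reaches into the stretch before Slc18a3. Slc5a7 is at chr17:54273590-54299034, also on the minus strand, and overlaps no other gene. The sources used here do not give the build and annotation behind the counts, and 32158 of the 32289 features (99.6%) have their identifier in M21.

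The bases before the start of these genes are shown because the 3 genes marked the same nuclei. Of the 10 genes, 9 have an entry in the RefSeq promoter table of build GRCm38.p6 used here. The stretches printed are chr14:32465990-32466159 for Chat (170 bases, trimmed to lie outside annotated exons of that strand), chr14:32464851-32465100 for Slc18a3 (250 bases) and chr17:54299035-54299284 for Slc5a7 (250 bases), each on the minus strand and 5′ to 3′. Capitals mark exact matches on either strand to 4 motifs. These are CACGTG (1 form of the E-box), TGACG (the core of the cAMP response element), GGGCGG (the GC box) and TAATTA (1 form of homeodomain site). Other forms of these sites were not searched and are not marked.
Chat: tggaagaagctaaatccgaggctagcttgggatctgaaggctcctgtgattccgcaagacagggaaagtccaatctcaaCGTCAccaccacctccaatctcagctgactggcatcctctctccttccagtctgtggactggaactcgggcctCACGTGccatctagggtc
Slc18a3: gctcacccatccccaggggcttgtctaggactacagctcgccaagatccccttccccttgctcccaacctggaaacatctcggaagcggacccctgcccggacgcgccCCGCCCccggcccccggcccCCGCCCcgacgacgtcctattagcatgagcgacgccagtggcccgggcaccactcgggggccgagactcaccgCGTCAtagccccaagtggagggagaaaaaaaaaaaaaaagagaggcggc
Slc5a7: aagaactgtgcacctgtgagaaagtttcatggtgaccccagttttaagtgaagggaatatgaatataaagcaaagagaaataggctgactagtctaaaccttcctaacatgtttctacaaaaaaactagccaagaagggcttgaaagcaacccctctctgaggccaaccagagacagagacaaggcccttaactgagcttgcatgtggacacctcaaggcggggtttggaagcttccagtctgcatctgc
The Chat stretch held 1 CACGTG and 1 TGACG, found in 3.38% and 9.86% of 32851 promoter entries over a window of the same length. The Slc18a3 stretch held 2 GGGCGG and 1 TGACG, found in 32.7% and 17.8% of entries, and the Slc5a7 stretch held none of the 4. None of these 4 exact motifs was thus common to the 3 stretches, which leaves out other forms of the same sites. A match describes letters only.

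Chat was concentrated in sub-cluster 5, which was led by Slc5a7, Chat and Megf10 and carried markers of cholinergic neurons other than the 10 genes. In the aged library Chat stood at 90.0 CPM there (79.7 to 101) and in the young library at 106 CPM (96.9 to 117). The next sub-cluster was at 6.45 CPM in the aged library (sub-cluster 15, led by Prdm16, Ano1 and Clic4) and at 3.66 CPM in the young library (sub-cluster 9, led by Adora2a, Drd2 and Penk), and neither interval reached that of sub-cluster 5. Sub-cluster 5 held 86.4% of all Chat UMIs of aged neurons and 87.0% of those of young neurons.

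Slc5a7 was highest in the same sub-cluster and had a clear second. Its level was 155 CPM (142 to 170) in aged and 161 CPM (150 to 174) in young nuclei of sub-cluster 5. Sub-cluster 17, which resembled interneurons of the medial ganglionic eminence and was led by Egfr, Igfbp4 and Kit, came second in both libraries at 46.6 CPM (30.2 to 68.8) and 30.3 CPM (19.8 to 44.4), while no Chat UMI was seen there in 66 aged and 95 young nuclei, which allows at most 5.44% and 3.81% of nuclei with a Chat UMI (upper ends of the exact 95% intervals). Slc18a3 gave few UMIs, 68 in aged and 48 in young neurons, and sub-cluster 5 held 80.9% and 83.3% of them.

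**Figure D1:**
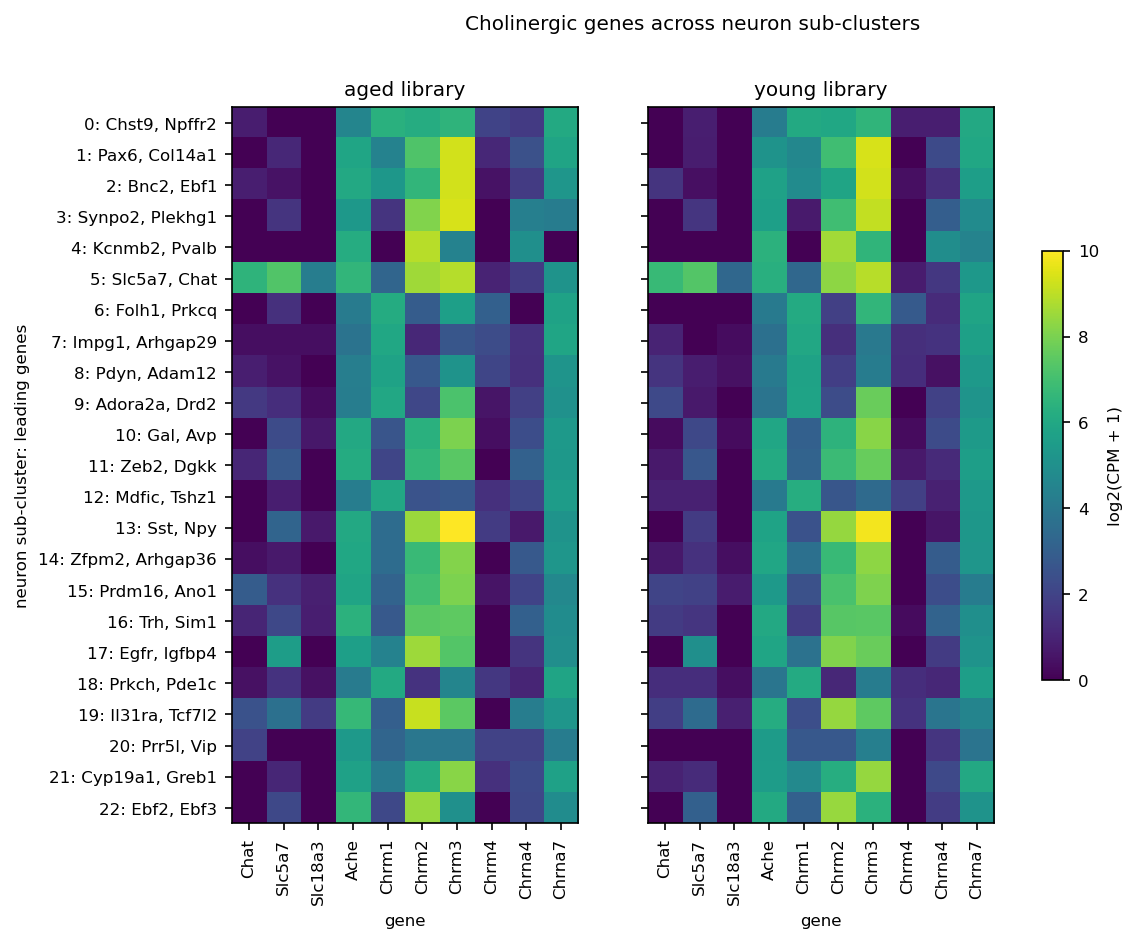
Level of each of the 10 genes as log2(CPM + 1) (colour) in 23 neuron sub-clusters (rows, numbered and named by 2 leading genes), aged library at the left and young at the right. Chat, Slc5a7 and Slc18a3 stand out in sub-cluster 5, and the rows of sub-clusters 6, 7, 8, 9, 12 and 18 are brighter for Chrm1 than for Chrm2.

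The name cholinergic-like holds for only part of sub-cluster 5. Of its 223 aged and 325 young nuclei, 183 and 267 carried no UMI of Chat or Slc5a7, and 32 and 51 carried 4 or more of both genes together, with 8 and 7 nuclei between. The limit of 4 UMIs was set after the counts were seen. Just outside it, 2 aged and 2 young nuclei held 2 or 3 UMIs, and just inside it 1 aged and 0 young nuclei held 4 or 5. The nuclei with 4 or more UMIs are called Chat- and Slc5a7-rich below, and those with none are called the remaining nuclei. The remaining nuclei were shallower, with median totals of 11755 aged and 11743 young UMIs against 17971.5 and 14400 in the rich nuclei. The part of depth in these differences was not tested.

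**Figure D2:**
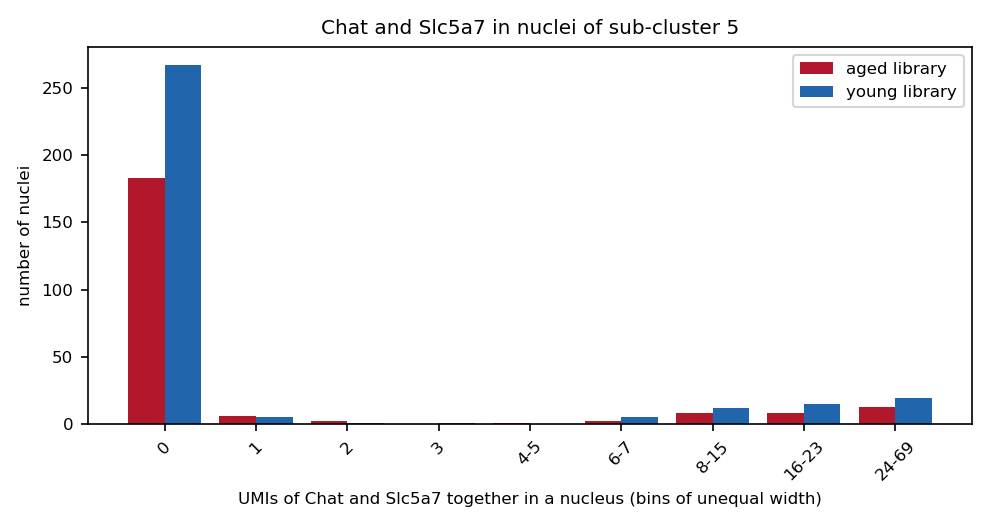
Number of nuclei of sub-cluster 5 (vertical axis) by their UMIs of Chat and Slc5a7 together (horizontal axis, bins of unequal width), for the aged and the young library. Most nuclei sit at 0 (183 aged and 267 young), few sit between, and a second group of 32 aged and 51 young nuclei lies at 4 or more.

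The rich nuclei were 0.644% of aged neurons (0.441 to 0.908, exact 95% interval) and 0.795% of young neurons (0.592 to 1.04). The difference, aged minus young, was −0.151 points with an interval of −0.462 to 0.174, which includes 0. Among them, 29 of 32 aged and 49 of 51 young nuclei held UMIs of both Chat and Slc5a7. Slc18a3 was not counted in the choice of nuclei, but it lies in an intron of Chat on the same strand. Its UMIs may include unspliced Chat RNA and so may not be independent of that choice. It was seen in 24 of the 32 aged and 26 of the 51 young rich nuclei, and in none of the remaining nuclei. Its level in the rich nuclei was 96.7 CPM aged and 49.6 CPM young. That is 76.7-fold and 57.2-fold above the limit of 3 UMIs over the remaining nuclei of each library. The exact intervals of the ratio to the remaining nuclei began at 60.3-fold aged and 44.4-fold young. A further 7 aged and 5 young neurons outside sub-cluster 5 reached 4 UMIs, of which 4 were in sub-cluster 17 and 3 in sub-cluster 15.

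Some genes of the wider cholinergic list marked the rich nuclei too. Of 26 listed genes with enough UMIs, 8 were 2-fold or more higher in both libraries and 2 were lower. The rest were past neither limit. Over all 11309 genes with enough UMIs, 2.69% were higher and 5.57% lower. Ngfr, a neurotrophin receptor, was higher in the rich nuclei (94.9 against 1.26 CPM aged, 102 against 0.868 CPM young). So were Prima1, the membrane anchor of Ache (406 against 1.26 CPM aged, 524 against 1.74 CPM young), the acetyl-CoA enzyme Acly (309 against 23.1 CPM, 321 against 18.5 CPM), Slc10a4, a carrier-like protein of cholinergic vesicles (107 against 7.56 CPM, 98.0 against 6.36 CPM), and the transcription factors Isl1, Nkx2-1 and Zic4. Gbx1, a homeobox gene of the same list, was lower in the rich nuclei (14.1 against 72.3 CPM aged, 8.91 against 86.2 CPM young), as was Tmem35a, a chaperone of nicotinic receptors. Lhx8, a transcription factor of cholinergic fate, was present on both sides, at 151 against 77.7 CPM aged and 172 against 67.4 CPM young.

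The receptor genes split sub-cluster 5 along the same line. Past 2-fold in both libraries, 5 of the 8 members with enough UMIs were higher in the rich nuclei and 2 were lower, where 2.69% of 11309 genes were higher, 5.57% lower and 8.26% either. Chat and Slc5a7 are among the 5 because they chose the nuclei, so their part of the count is no result. The other 3 higher were Chrm2, Chrna7 and Slc18a3, and the lower ones were Chrm1 and Chrm3. Of these, Slc18a3 may not be independent of the choice either, since its UMIs may include unspliced Chat RNA.

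Chrm3, a phospholipase C-coupled receptor, was lower in the rich nuclei of both libraries. It stood at 59.8 CPM in aged rich nuclei and 588 CPM in the remaining aged nuclei, and at 38.2 and 593 CPM in the young library. The level was thus 9.84-fold lower (7.01 to 14.3 from the exact interval) in the aged and 15.5-fold lower (10.8 to 23.1) in the young rich nuclei. Much of what the rich nuclei held came from few of them: at a limit of 8 UMIs, chosen after the data were seen, 9.34 CPM was left in 29 aged and 5.43 CPM in 46 young nuclei, 63.0-fold and 109-fold below the remaining nuclei.

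Chrm2, the receptor that on cholinergic neurons acts as an autoreceptor, went the other way. It stood at 670 CPM in aged rich nuclei against 317 CPM in the remaining ones, and at 752 against 219 CPM in the young library, which is 2.11-fold (1.86 to 2.39) and 3.43-fold (3.08 to 3.83) higher. Without the nucleus with most Chrm2 UMIs in each library the folds were 1.97 and 3.31, so that the aged one falls just under 2-fold. With every nucleus thinned to 2000 UMIs, Chrm2 was found in 78.1% of aged (60.0 to 90.7) and 60.8% of young (46.1 to 74.2) rich nuclei, against 42.1% and 33.5% of the remaining ones. Chrm3 was found in 6.25% and 5.88% of the rich nuclei and in 49.2% and 48.9% of the remaining ones. In oligodendrocytes, which served as a measure of free RNA, Chrm2 was found in 1.01% of aged and 0 of 608 young nuclei and Chrm3 in 0.336% and 0.164%, at median totals of 2511 and 2163 UMIs before thinning. After thinning, both Chrm2 and Chrm3 were found in 2 aged and 3 young rich nuclei, and in 48 aged and 44 young remaining ones.

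Chrna7, the subunit of the homomeric nicotinic channel, was higher in the rich nuclei at 68.6 against 26.5 CPM aged (2.59-fold, 1.69 to 3.92) and 72.5 against 32.7 CPM young (2.22-fold, 1.59 to 3.08). The young fold was 1.52 without the nucleus with most Chrna7 UMIs. Ache was at 128 against 84.9 CPM aged and 123 against 66.8 CPM young, folds of 1.51 and 1.85 that stayed under 2. Chrm1 rested on 2 aged and 3 young UMIs in the rich nuclei, at 3.52 against 10.1 CPM and 3.82 against 10.1 CPM, and its intervals included no difference. Chrm4 and Chrna4 gave 1 aged UMI and 3 young UMIs between them there, too few to compare.

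**Figure D3:**
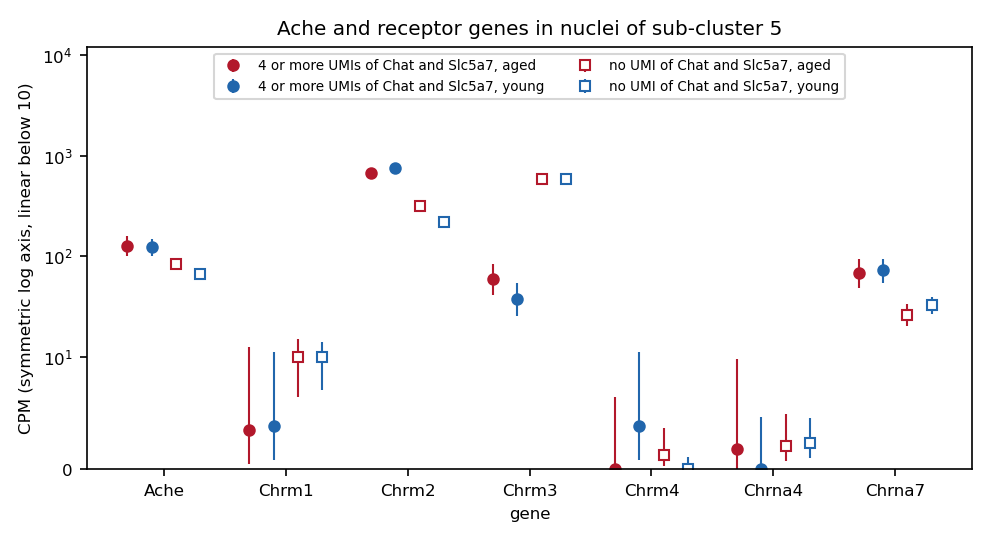
CPM of Ache and the receptor genes (vertical axis, symmetric log scale, linear below 10) in nuclei of sub-cluster 5 with 4 or more UMIs of Chat and Slc5a7 (filled circles) and with none (open squares), aged and young, with exact Poisson 95% intervals of counting error. Chrm2 and Chrna7 lie higher and Chrm3 lower in the rich nuclei of both libraries.

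Much of the same split came out of a finer clustering that left the 10 genes out. At Leiden resolution 2, again chosen after the data were seen, the cholinergic-like sub-cluster held 27 aged and 41 young nuclei, all of them among the rich nuclei. The rest of the 32 aged and 51 young rich nuclei fell outside it and count among the other nuclei here. Another finer sub-cluster made mostly of nuclei of sub-cluster 5 was led by Ccbe1, Tafa4 and Gpc5 (96 aged and 152 young nuclei). A further one was led by Megf10, Gbx1 and Npas1 (95 and 129). The other nuclei here, like the remaining nuclei above, are thus a mix of groups. Against the other nuclei of sub-cluster 5, Chrm3 was at 9.98 against 566 CPM aged and 1.52 against 576 CPM young. Chrm2 was at 633 against 331 CPM aged and 638 against 258 CPM young, folds of 1.91 and 2.47.

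Taken whole, sub-cluster 5 was past 2-fold against all other neurons in both libraries for 5 of the 10 genes, where 12% of 17993 genes were past it, 3.62% higher and 8.41% lower. Chat was 90.3-fold and 79.1-fold higher, Slc5a7 56.8-fold and 73.2-fold, Slc18a3 59.9-fold and 59.2-fold, and Chrm2 3.64-fold and 3.40-fold, aged and young. Chrm1 was 3.70-fold and 3.39-fold lower. Ache, at 2.03-fold and 1.96-fold higher, missed the limit in the young library only. Of 37 genes of the wider list 13 were higher and 1 lower, and of 17 genes of muscarinic coupling 0 were higher and 5 lower, among them Plcb1, a phospholipase C, and Adcy5, an adenylyl cyclase. The call for Chrm3 depends on where the sub-cluster is drawn: it was higher past 2-fold when doublets were kept or at resolution 0.5, and lower past 2-fold in 4 settings that gave a smaller sub-cluster, with 26 to 36 aged and 41 to 70 young nuclei.

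Across neurons, Chrm1 was highest in 7 sub-clusters, of which 4 resembled striatal and 2 intercalated neurons and sub-cluster 6 stayed unnamed. Chrm1, the main phospholipase C-coupled receptor of striatal and cortical neurons, was at 53.1 to 69.0 CPM in the Drd1- and Drd2-type-like sub-clusters 7, 8, 9 and 18 of both libraries. It was at 62.6 to 80.3 CPM in sub-cluster 6 (Folh1, Prkcq, Ntng2), sub-cluster 12 (Mdfic, Tshz1, Sema5b) and sub-cluster 0 (Chst9, Npffr2, Tshz1). The 16 other sub-clusters lay between 0 and 38.3 CPM with a median of 7.75 CPM. The 7 were grouped after their levels were seen, so the gap between the 2 ranges follows from the choice and is no test. The same 7 ranked highest in both libraries.

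Chrm2 gave nearly the reverse picture. It lay between 1.14 and 6.46 CPM in sub-clusters 6, 7, 8, 9, 12 and 18, and between 5.74 and 568 CPM in the other 17, with medians of 3.07 and 132 CPM. This grouping was also made after the levels were seen. The highest levels were in sub-cluster 19 (Il31ra, Tcf7l2, Frem1) at 568 CPM aged (518 to 621) and sub-cluster 4 (Kcnmb2, Pvalb, Hmcn1) at 390 CPM young (320 to 471). The 2 sub-clusters that led in each library had intervals that overlapped. In sub-cluster 0, which was high for Chrm1, Chrm2 stood at 71.9 and 60.5 CPM. After thinning, both genes were found in 3 of 222 aged and 3 of 224 young nuclei of that sub-cluster.

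Chrm3 had its highest level in sub-cluster 13, led by Sst, Npy and Sox6, at 1006 CPM aged (959 to 1055) and 906 CPM young (867 to 948). The next sub-clusters were 3 (Synpo2, Plekhg1, Tcf7l2) at 665 CPM in the aged and 1 (Pax6, Col14a1, Npsr1) at 668 CPM in the young library, and their intervals stayed below that of sub-cluster 13. After thinning to 2000 UMIs, 73.9% of aged and 70.9% of young nuclei of sub-cluster 13 held a Chrm3 UMI, and 26.7% and 26.9% held both Chrm2 and Chrm3, against 4.28% and 3.94% of all neurons.

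Chrm3 differed between the striatal types. The Drd2-type-like sub-cluster 9 was at 142 CPM aged and 209 CPM young, whereas the Drd1-type-like sub-clusters 7, 8 and 18 lay between 5.43 and 34.4 CPM over both libraries. After thinning, 19.4% of aged and 27.2% of young nuclei of sub-cluster 9 held a Chrm3 UMI, against 1.42% to 4.14% of those of sub-clusters 7, 8 and 18. For Chrm1 and Chrm2, sub-cluster 9 lay within the range of sub-clusters 7, 8 and 18. Sub-cluster 20, suprachiasmatic-like and led by Prr5l, Vip and Vipr2, was low for Chrm1 (8.70 and 5.74 CPM), Chrm2 (14.5 and 5.74 CPM) and Chrm3 (14.5 and 19.1 CPM), each from 10 UMIs or fewer.

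**Figure D4:**
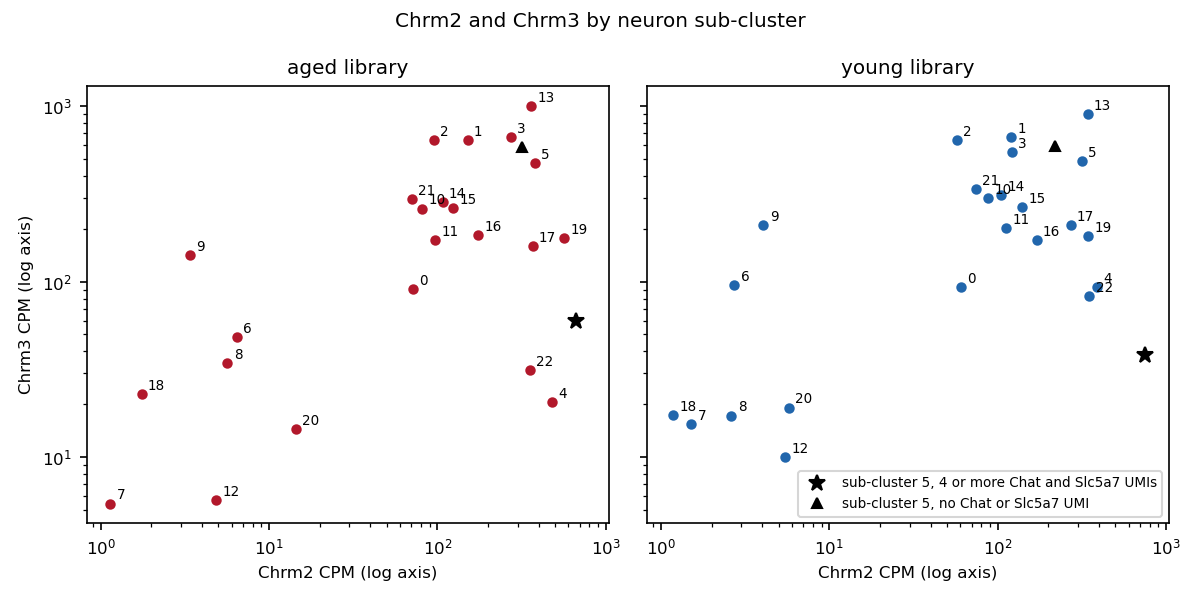
Chrm2 CPM (horizontal, log axis) against Chrm3 CPM (vertical, log axis) in 23 neuron sub-clusters (numbered points), aged at the left and young at the right. The star marks the Chat- and Slc5a7-rich nuclei of sub-cluster 5, high for Chrm2 and low for Chrm3 beside sub-clusters 4 and 22, and the triangle marks the remaining nuclei, which lie among the sub-clusters high for both.

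Chrm4, the receptor that in rodent striatum is known from Drd1-type neurons, was barely counted. Aged neurons held 60 and young neurons 37 UMIs, never more than 1 in a nucleus. The highest level was in sub-cluster 6, at 7.26 CPM aged (3.32 to 13.8) and 6.15 CPM young (2.81 to 11.7), and the Drd1-type-like sub-clusters lay between 1.47 and 4.00 CPM. The M21 annotation gives Chrm4 as 1 exon of 1440 bases at chr2:91927249-91928688, plus strand, while its RefSeq gene spans 7647 bases. How much Chrm4 RNA the counting could see was not tested.

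Ache was low in the sub-clusters that were low for Chrm2. It lay between 11.8 and 18.6 CPM in sub-clusters 6, 7, 8, 9, 12 and 18, and between 17.3 and 103 CPM in the other 17, with a median of 59.6 CPM. Oligodendrocytes were at 12.9 CPM aged and 12.1 CPM young, and barcodes of 100 or fewer UMIs, which hold free RNA, were at 107 and 76.2 CPM. The leading sub-clusters, 19 in the aged library at 103 CPM (82.6 to 127) and 4 in the young at 85.9 CPM (55.1 to 128), were not apart from the next in order.

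The nicotinic subunits differed in reach. Chrna4, which forms the high-affinity nicotinic channel with the product of Chrnb2, gave 204 aged and 197 young UMIs in neurons. It was highest in sub-cluster 4 at 30.8 CPM (11.3 to 67.0) and 28.6 CPM (12.4 to 56.4), and also high in sub-cluster 19 at 17.8 and 13.8 CPM and in sub-cluster 3 at 18.8 and 7.02 CPM. Both 3 and 19 are thalamic-like. Chrna7 was spread widely, with a median of 36.7 CPM aged and 39.5 CPM young over sub-clusters and a highest level of 65.9 and 65.2 CPM in sub-cluster 0, whose interval overlapped that of the next sub-cluster in each library.

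The genes whose levels most resembled each member over 23 sub-clusters in both libraries (46 points, Pearson's r of log2(CPM + 5)) are given as a description, since the points share libraries and depth. Ngfr resembled Chat (0.83) and Slc18a3 (0.85) most, and Slc10a4 resembled Slc5a7 most (0.85). Median levels over sub-clusters were 0.299 CPM aged and 0.627 CPM young for Chat and 0 for Slc18a3 in both. Any r of Chat or Slc18a3 thus rests mainly on sub-cluster 5. Ngfr and Slc10a4 were also among the markers used to name cholinergic-like neurons. Kcnh3 (0.93) and Icam5 (0.90) resembled Chrm1, Vwc2 (0.94), Shisa4 (0.93) and Sv2a (0.93) resembled Chrm2, and Arhgap42 (0.80), Htr7 (0.79) and Vstm2b (0.77) resembled Chrm3. Tspan17 (0.93) was nearest to Ache, Tac1 (0.77) to Chrm4, Slc30a3 (0.82) to Chrna4 and Dbndd2 (0.76) to Chrna7. Between the members themselves, r was 0.88 for Ache and Chrm2, −0.85 for Ache and Chrm1, −0.77 for Chrm1 and Chrm2, and 0.94 for Chat and Slc18a3.

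Outside neurons, Slc5a7 was found in oligodendrocyte precursors of both libraries. It stood at 58.4 CPM (43.1 to 77.5) in 183 aged and 48.4 CPM (36.0 to 63.6) in 253 young precursors, spread over 39 and 32 nuclei with at most 3 and 6 UMIs in any one. Chat gave 1 aged and 0 young UMIs and Slc18a3 gave 2 and 0 in these cells, and mature oligodendrocytes held 7 aged and 1 young Slc5a7 UMIs. Barcodes of 100 or fewer UMIs were at 8.72 and 13.4 CPM for Slc5a7, below the precursors.

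Chrm3 was high in fibroblasts of the young library, at 935 CPM (839 to 1038) in 95 nuclei. Of its 351 UMIs, 305 came from a cluster of 32 nuclei led by Bnc2, Adamtsl3 and Slc47a1, which held young nuclei only and stood at 1427 CPM. A second fibroblast cluster, led by Slc6a13, Slc6a20a and Dcn, was at 284 CPM (208 to 379) in 63 young nuclei and gave no UMI in 16 aged ones, with an upper limit of 58.5 CPM. Chat in microglia and astrocytes rested on single nuclei. All 14 Chat UMIs of aged microglia came from 1 nucleus of 23364 UMIs, which also held 486 UMIs of the 9 neuron markers and 37 of the 7 microglia markers. All 10 Chat UMIs of young astrocytes came from 1 nucleus of 21805 UMIs, with 390 UMIs of neuron markers and 60 of the 7 astrocyte markers.

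Between the ages, most of the genes differed little in neurons. Of the 10, 2 were past 1.5-fold, where 9.32% of 17993 genes were past it, 3% higher and 6.32% lower in the aged library. The 2 were Slc18a3 and Chrm4, both higher and both low in UMIs. Slc18a3 was at 1.47 CPM aged and 0.863 CPM young (1.71-fold, 1.16 to 2.52), and Chrm4 at 1.30 and 0.665 CPM (1.95-fold, 1.28 to 3.03). On the log2(CPM + 5) scale, which understates the change of low genes, their differences were 0.14 and 0.15, under 1.5-fold.

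Chat moved the other way within the limit. It was at 6.87 CPM aged and 9.53 CPM young, 1.39-fold lower in the aged library (1.20 to 1.60). Slc5a7 was at 12.8 and 14.6 CPM (1.14-fold lower, 1.02 to 1.27), and the share of neurons that were rich nuclei was lower by the amount given above, with an interval that included 0. The part of that share in these ratios was not tested.

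**Figure D5:**
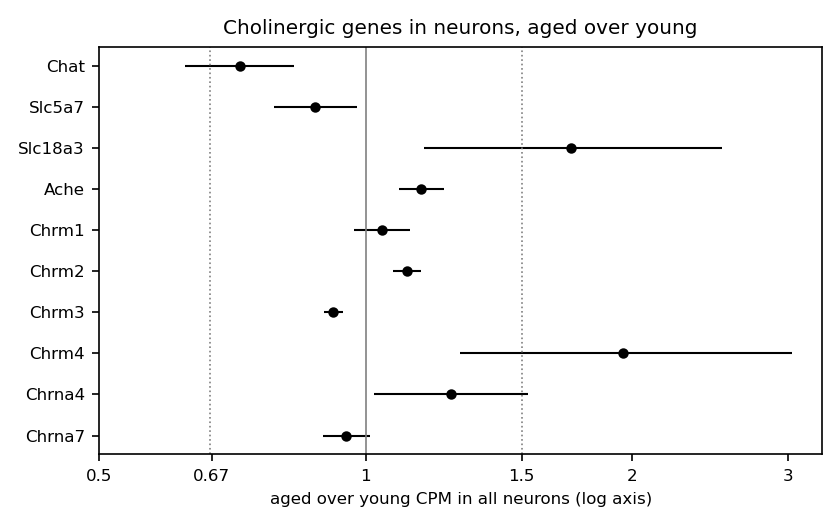
Ratio of aged to young CPM in all neurons (horizontal, log axis) for each of the 10 genes, with exact 95% intervals of counting error (bars), the line of no difference (solid) and the 1.5-fold limits (dotted). Slc18a3 (1.71) and Chrm4 (1.95) lie past the limit, and Chat (0.721) lies lowest.

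The other 6 genes lay within 1.5-fold. Ache was at 49.2 CPM aged and 42.6 CPM young (1.16-fold higher, 1.09 to 1.22) and Chrm2 at 123 and 110 CPM (1.11-fold higher, 1.07 to 1.15). Chrna4 was at 4.42 and 3.54 CPM (young over aged 0.801, 0.655 to 0.979). Chrm3 was at 264 and 288 CPM (1.09-fold lower, 1.06 to 1.11). The intervals of Chrm1 (30.1 and 28.9 CPM) and Chrna7 (39.4 and 41.4 CPM) included no difference.

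Within the rich nuclei themselves, Chat was at 480 CPM aged and 584 CPM young (1.22-fold lower, 1.05 to 1.42) and Slc5a7 at 816 and 879 CPM (1.08-fold lower, 0.957 to 1.22). Slc18a3 was 1.95-fold higher in the aged rich nuclei (1.27 to 3.02) at the levels given above, and its highest count in a nucleus of sub-cluster 5 was 9 aged and 3 young UMIs. Without the nucleus with most Slc18a3 UMIs in each library the fold over the whole of sub-cluster 5 was 1.78, against 1.96 with it, where 8.16% of genes were past 1.5-fold. Chrm3 was 1.57-fold higher with an interval of 0.930 to 2.65. Slc18a3 and Chrm3 were the 2 of 7 members past 1.5-fold there, where 12.6% of 4968 genes were past it. The difference in Chrm3 turned without the nucleus with most Chrm3 UMIs in each library, at 14.6 CPM aged and 24.6 CPM young. Chrm2 was at 670 and 752 CPM, with an interval of the ratio of 0.781 to 1.01.

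Over all 23 sub-clusters, 92 pairs of a member and a sub-cluster had 50 or more UMIs, of which 9 were past 1.5-fold higher and 4 lower in the aged library (14.1%), where 9.81% of 196906 such pairs over all genes were past it. Chrm2 supplied 3 of the 9. In the thalamic-like sub-cluster 3 it was at 274 CPM aged and 121 CPM young (2.26-fold, 1.91 to 2.67). Without thinning it was found there in 68.7% of 131 aged and 33.3% of 117 young nuclei, at median totals of 13891 and 11203 UMIs. In sub-cluster 19, also thalamic-like, it was at 568 and 345 CPM (1.65-fold, 1.44 to 1.89), and in sub-cluster 2 (Bnc2, Ebf1, Slc17a8) at 95.4 and 57.0 CPM (1.67-fold, 1.38 to 2.04). These differences kept their direction without the nucleus with most Chrm2 UMIs, at 2.48-fold, 1.87-fold and 1.54-fold. The shares of genes past 1.5-fold in sub-clusters 3, 19 and 2 were 13.7%, 11.1% and 8.54%.

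Chrna4 was also higher in aged nuclei of sub-cluster 3, at 18.8 against 7.02 CPM (2.67-fold, 1.35 to 5.76, from 41 and 11 UMIs), and Chrna7 was lower there at 17.4 against 27.4 CPM with an interval that included no difference. Ache was higher in sub-cluster 1, at 57.9 against 34.6 CPM (1.67-fold, 1.10 to 2.54), where 11.6% of genes were past 1.5-fold. The other 3 pairs had intervals that included no difference: Chrna7 in sub-cluster 19 at 36.8 against 21.6 CPM, Slc5a7 in sub-cluster 17 at the levels given above and Chrm1 in sub-cluster 21. In sub-clusters 17 and 21, 14.3% and 8.65% of genes were past 1.5-fold.

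For Chrm3 the sub-clusters went different ways. It was lower in aged nuclei of sub-cluster 6, at 48.4 against 95.7 CPM (1.98-fold, 1.45 to 2.72). Without thinning it was found there in 8.56% of aged and 19.2% of young nuclei. It was lower in sub-cluster 7, at 5.43 against 15.4 CPM (2.83-fold, 1.67 to 5.02), and higher in sub-cluster 8, at 34.4 against 17.2 CPM (2.0-fold, 1.38 to 2.92). The last 2 did not hold at a finer clustering chosen after the data were seen: the finer sub-clusters made mostly of nuclei of 7 stood 1.80-fold lower and 1.85-fold higher, and the one for 8 stood 1.09-fold lower. One aged nucleus held 32 of the 85 Chrm3 UMIs of sub-cluster 8, and the fold was 1.47 without the nucleus with most. The shares of genes past 1.5-fold in sub-clusters 6, 7 and 8 were 9.8%, 9.22% and 9.58%.

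The wider cholinergic list, 45 genes of which 37 had 50 or more UMIs in neurons, had 0 genes past 1.5-fold higher and 3 lower in the aged library, with a median log2 ratio of −0.04 beside 0.01 over all genes tested. That is close to the 3% higher and 6.32% lower over all genes, and is no result about the list. The 3 were Chrnb1, a muscle-type nicotinic subunit (1.52 against 2.71 CPM, 1.79-fold lower, 1.34 to 2.41), Slc44a4, a choline transporter-like protein (0.498 against 0.935 CPM, 1.88-fold lower, 1.13 to 3.21), and Chrna3, a ganglion-type nicotinic subunit, whose interval included no difference. Chrnb2, the partner of Chrna4, was at 12.4 and 12.9 CPM, Bche, the second cholinesterase, at 3.45 and 4.28 CPM, Slc10a4 at 3.21 and 3.16 CPM, and the fifth muscarinic gene Chrm5 gave 28 and 24 UMIs. Of 17 genes of muscarinic coupling, 0 were past 1.5-fold, where 9.32% of all genes were, with a median log2 ratio of 0.01.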

How the data were processed

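The authors deposited raw UMI counts per gene and barcode for 1 library per age, made with Cell Ranger (version 4 in the file headers), with no normalization. The sources used here give no build, annotation, treatment of introns or use of strand. The tables list 1967507 aged and 1984763 young barcodes with 79107368 and 87520038 UMIs.

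Barcodes with 500 or more genes and at most 5% mitochondrial UMIs were kept, 8597 aged and 10437 young with median totals of 5699 and 5567 UMIs. Over these barcodes the 10 genes held from 63 (Chrm4) to 13184 (Chrm3) aged UMIs and from 41 to 17559 young UMIs. Scrublet in scanpy 1.11.5 marked 403 aged (4.69%) and 499 young (4.78%) barcodes as doublets, which were left out. Nuclei were scaled to 10000 UMIs, log transformed and clustered on 2000 variable genes, 30 principal components and 15 neighbours by the Leiden method at resolution 1. Classes and types were named from fixed marker lists, so names are rebuilt here and mark resemblance only. Against nuclei of the other named classes, 0 of 13 neuronal clusters had a marker of another class among its 10 leading genes. No neuron marker was among these genes either, so the check says little about the class. Against all other nuclei 2 clusters had a marker of another class, and had more of these than of neuron markers. Unnamed were a cluster of 1473 aged and 1128 young barcodes with oligodendrocyte markers, and a shallow one of 519 and 89 led by Oxt, Avp and ribosomal genes. Neurons were clustered again without the 10 genes and the wider list among the variable genes.

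UMIs were summed per library and group. Ratios of CPM carry exact conditional binomial 95% intervals, CPM exact Poisson and shares exact Clopper-Pearson intervals, and the difference of shares Newcombe's. The limit of a count of 0 was taken as 3 UMIs. A gene was past the fold at 1.5 (ages) or 2 in both libraries (types) with 50 or more UMIs. Median log2 ratios use CPM + 5. The ratio and fold steps were tested on simulated data. The named genes are all 10 members, the listed genes past the fold, Chrnb2, Chrm5, Bche and Slc10a4, and for each member up to 3 genes of most like pattern. Some of these are not reported here. The members, the lists and the rules were chosen with earlier results of these data known. Alternatives were the gene and mitochondrial limits, doublets kept, resolution, free RNA (as profiled in the barcodes holding at most 100 UMIs) subtracted, scaling, pseudocounts, sub-clusters weighted alike and the top nucleus left out.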

Additional observations from a re-analysis of the deposited data

How the results depend on the processing

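No paired analysis was possible because there is 1 library per age. Slc18a3 and Chrm4 were past 1.5-fold between the ages in plain CPM under the filters, scalings and clusterings run, except with at most 1% mitochondrial UMIs, where 1 of the 10 genes, Chrm4, was past it. With CPM added before the ratio neither was past it: their log2 ratios were 0.41 and 0.47 with 1 CPM added, 0.14 and 0.15 with 5, and 0.04 and 0.04 with 20. The count of genes past 1.5-fold was 1677, and it was 7392 with no minimum beyond 1 UMI and 4397 at a lower fold limit, where 3 of the 10 genes were past it. In the cholinergic-like sub-cluster 5 of the 10 genes were past 2-fold, and 8 were with at most 1% mitochondrial UMIs, with the members allowed among the variable genes, and at resolution 2, settings that left 26, 31 and 27 aged and 48, 50 and 41 young nuclei in it. The share of rich nuclei with a Chrm2 UMI was 100% aged and 90.2% young without thinning and 82.4% young at 5000 UMIs. The share of neurons in the sub-cluster, aged minus young, was −0.578 points and stayed below 0 under all 6 alternatives (−0.666 to −0.0957), with an interval below 0 only for barcodes with 1000 or more genes (−0.719 to −0.0108). There were 2 results that turned at the finer clustering added after the data were seen: the log2 ratio of Chrm3 was 0.89 in one of the finer sub-clusters of 7 and −0.13 in that of 8. With sub-clusters weighted alike and 5 CPM added, the log2 ratio of Chat was −0.16 and that of Slc5a7 0.01. Added CPM understates the change of low genes, so these 2 values cannot be set against the plain folds above. The cause of the changes between settings was not tested. With 60, 68 and 204 UMIs in aged neurons, the precision of Chrm4, Slc18a3 and Chrna4 is set by few counts.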

Other observations

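The unnamed cluster led by Oxt, Avp and ribosomal genes is in no comparison above. Slc5a7 was at 59.9 CPM (38.4 to 89.2) in its 519 aged barcodes, from 24 UMIs in 11 of them, and Ache at 105 CPM aged and 138 CPM young. Barcodes of 100 or fewer UMIs were at 107 and 76.2 CPM for Ache. In 38 young mural nuclei, all 34 Chrm2 UMIs came from 3 nuclei, 24 of them from 1.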
